A study of Bombyx mori with 4 samples.

Results

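Chromatin, DNA replication and cell cycle genes were examined in the larval testis of the silkworm Bombyx mori, in the op mutant and in wild type. The genes were those whose description in the study's re-annotation table contained words such as histone, chromatin, chromobox, cyclin, cell division, replication or DNA polymerase, leaving out descriptions with ubiquitin. Only a minor part of that table was used here, 1999 rows, which named probes by homology with 839 human gene symbols. Genes of this kind named in its other rows are missing from this report. The words found 28 of the 43803 probes on the array, from 15 expressed sequence tags (ESTs), under 14 gene symbols. Of these, 26 probes and 13 symbols were bright enough to be tested, among 30376 probes and 23809 genes tested in all. The symbols are human names, so each may stand for a different silkworm gene of the same family.

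The op larvae carried the mutation that makes the larval integument translucent, and the wild-type larvae were of the same strain, o751. Both were reared on mulberry leaves at 25 degrees Celsius with 12 hours of light, and testis was taken on day 3 of the fifth instar. From 300 ng of total RNA, Cy3-labelled cRNA was made for 2 op and 2 wild-type 1-color arrays on a single slide. The study's methods also state n = 5 for both genotypes, and the labels do not say whether the arrays of a genotype came from separate animals, so the p-values measure only the spread between these samples. By the study's account, classical linkage analysis placed op on a chromosome and tied it to male infertility and high mortality, particularly of pupae. The study proposes BmDJ-1 as the gene altered, without having established it. It does not give how alike the genotypes are in the rest of the genome.

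In the cell nucleus, DNA is wound around histones, and heterochromatin proteins such as CBX1 bind methylated histone tails in compact regions. Before each division the DNA is copied by polymerases held on the template by a sliding clamp, which the replication factor C complex loads. Cyclin-dependent kinases order these steps. In the silkworm the larval testis holds dividing spermatogonia and spermatocytes that enter meiosis, so genes of this kind are in use there.

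The values below are normalized log2 signals, that is, the log2 of the spot intensity after background subtraction minus the 75th percentile of the same array, averaged over the tested probes of a gene. A value of 0 therefore lies at that percentile, and levels of different genes cannot be compared because their probes differ. Genotypes were compared by limma over all 23809 genes with Benjamini-Hochberg adjustment, and each difference is op minus wild type.

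None of the 13 genes passed an adjusted p of 0.05 in limma (0 of 13), where 0.34% of all genes tested did. At an unadjusted p under 0.05 the count was also 0 of 13, against 18.1% of all genes, and the methods' t-test gave 1 of 13 before adjustment, RFC4, against 13.6% of all genes, and 0 after it. The fitted value was higher in op for 6 genes and lower for 7. Differences ran from -0.37 for RFC4 to 0.57 for HIST2H2AB, with a median of -0.11. Over all genes the median difference was 0.039 and the quartiles were -0.22 and 0.29. The genes of this group whose op arrays lay above both wild-type arrays were HIST2H2AB, POLE and CDC42, which made 3 of 13, against 29.4% of all genes. Those with both op arrays below both wild-type arrays were CBX1 and RFC4, 2 of 13, against 24% of all genes. The genotypes were thus apart for 5 of 13, against 53.3% of all genes, and overlapped for the other 8. In bulk testis RNA, fewer cells of a type and less RNA per cell cannot be told apart.

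**Figure D1:**
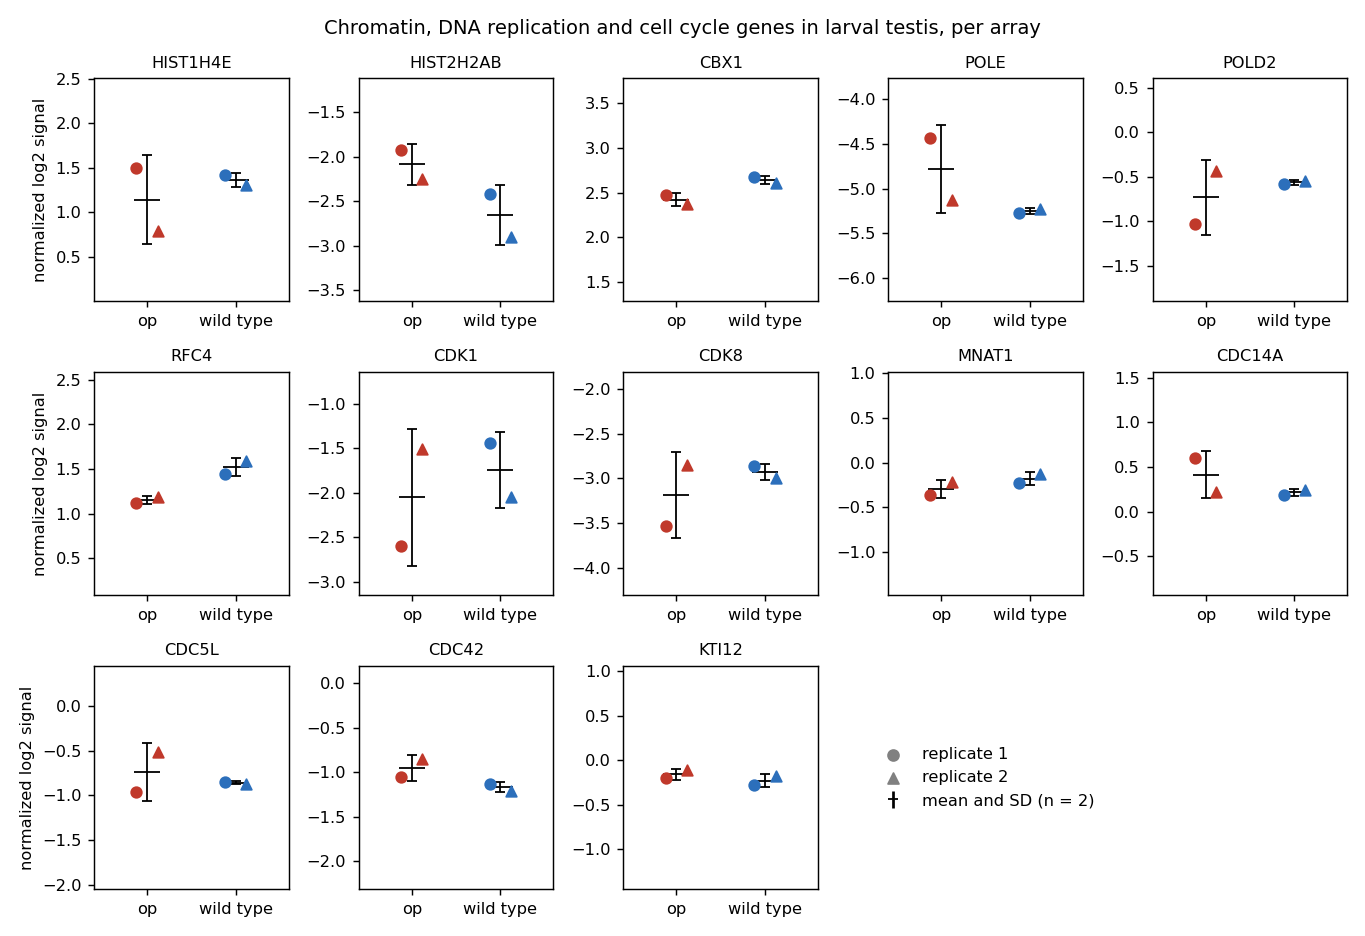
Normalized log2 signal (vertical axis) of the 13 tested genes on each array, with op at the left and wild type at the right of each panel. Circles are replicate 1, triangles replicate 2, and bars the mean with its SD (n = 2). All panels span the same range around their own centre, and the genotypes are apart in 5 panels and overlap in 8.

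Histones were represented by one gene each of the H4 and H2A families, which form part of the protein core of the nucleosome. HIST1H4E had 1.49 and 0.79 on the op arrays and 1.42 and 1.30 on the wild-type arrays. Op replicate 2 was the low array, and op replicate 1 was above both wild-type arrays. The difference was -0.22 (standard error 0.28, limma adjusted p = 0.702), smaller than the SD of 0.50 between the op arrays. Without op replicate 2 the difference was 0.13, in the other direction.

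HIST2H2AB had -1.92 and -2.25 on the op arrays and -2.42 and -2.90 on the wild-type arrays, so both op arrays were higher. The difference of 0.57 (standard error 0.24) was the largest of the group in the direction of op, and it did not pass the test (limma adjusted p = 0.310). It was 0.29 with normexp background correction and 0.34 to 0.81 without each array in turn. Its 95% interval ran from 0.957 to 2.31 as a ratio, op over wild type. The gene has a pair of probes, 187 apart in the number that ends their IDs. Probe Ka02566_427 differed by 0.26 (standard error 0.18), and probe Ka02566_614, a dim probe at percentile 17.0 of the tested probes by signal, by 0.89 (standard error 0.36). Both were higher on each op array than on each wild-type array. Many animal histone mRNAs made during DNA synthesis lack a poly(A) tail, while the labelling kit primes from such tails. How much histone mRNA the labelling reached was not tested.

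CBX1, the beta form of heterochromatin protein HP1, was the gene with the most probes. Averaged over its 4 probes it read 2.47 and 2.37 on the op arrays, against 2.67 and 2.61 on the wild-type arrays, a -0.22 log2 difference with a standard error of 0.15 (limma adjusted p = 0.502). The average pooled 2 ESTs whose fitted differences had opposite signs. EST Ka00668 had 2.82 and 2.46 on the op arrays and 3.15 and 3.42 on the wild-type arrays, and both op arrays lay below. Its difference of -0.65 (standard error 0.21) corresponded to 0.638 times the wild-type signal, with a 95% interval of 0.433 to 0.938. It had an unadjusted p of 0.0308 and a limma adjusted p of 0.231 over all ESTs.

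EST Ka01731 had 2.13 and 2.28 on the op arrays and 2.19 and 1.80 on the wild-type arrays. Here wild type replicate 2 was the low array, and the genotypes overlapped. The difference was 0.21 (standard error 0.20, limma adjusted p = 0.624 over all ESTs), and without wild type replicate 2 it was 0.012. The ESTs were then set against each other within each array. EST Ka00668 minus EST Ka01731 was 0.69 and 0.17 on the op arrays and 0.95 and 1.63 on the wild-type arrays. This gap was smaller on both op arrays, by 0.86 on average. Its exact two-sided permutation p was 0.333, which is the smallest that 2 arrays against 2 can give. Any contrast with the genotypes apart gives that value, so it decides nothing about this gap. The gap was also taken between ESTs whose differences in these same arrays had opposite signs. Whether the ESTs come from one silkworm gene or from different ones is not given in the table.

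**Figure D2:**
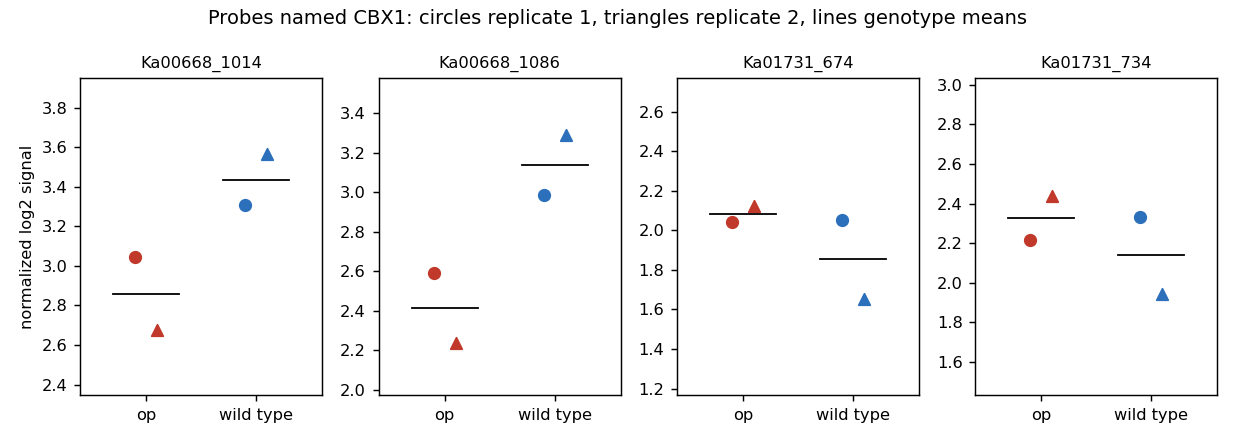
Normalized log2 signal (vertical axis) of the 4 probes named CBX1, op at the left and wild type at the right of each panel, circles for replicate 1, triangles for replicate 2 and lines for genotype means. Both probes of EST Ka00668 are lower on each op array, and both of EST Ka01731 overlap.

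At the level of single probes, 0 of the 26 passed an adjusted p of 0.05 in limma, where 0.316% of all probes did. At an unadjusted p under 0.05 there were 2 of 26, against 18.7% of all probes, both of them lower in op, against 8.04%, and both belonged to EST Ka00668. Probe Ka00668_1014 differed by -0.58 (limma adjusted p = 0.257) and probe Ka00668_1086 by -0.72 (limma adjusted p = 0.203). Their IDs lie 72 apart, more than the probe length of 60 bases, if the number is a position in the EST. In each of the 12 ESTs with a pair of tested probes, both probes had a difference of the same sign. The probes of an EST differed by under 0.15 in 11 of them, and HIST2H2AB, at 0.64, was the exception. Probes of 5 ESTs lie under 60 apart and may overlap, so they are not independent of each other.

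The DNA replication genes were subunits of the replicative polymerases and of the clamp loader. RFC4, a subunit of replication factor C, had 1.12 and 1.18 on the op arrays and 1.45 and 1.59 on the wild-type arrays. Both op arrays were lower, and the arrays of each genotype lay close together. The difference of -0.37 (standard error 0.16) corresponded to 0.773 times the wild-type signal, with a 95% interval of 0.579 to 1.03. It did not pass the test (limma adjusted p = 0.311, unadjusted p = 0.0694). Its probes gave -0.41 and -0.33, and lie 40 apart in ID.

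POLD2, a regulatory subunit of DNA polymerase delta, had -1.03 and -0.43 on the op arrays and -0.58 and -0.55 on the wild-type arrays. Op replicate 1 was the lowest array and op replicate 2 the highest, with wild type between them. The difference was -0.17 (standard error 0.25, limma adjusted p = 0.746), and without op replicate 1 it was 0.13.

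POLE, the catalytic subunit of DNA polymerase epsilon, had -4.43 and -5.13 on the op arrays and -5.27 and -5.23 on the wild-type arrays. Both op arrays were higher, and op replicate 2 lay close to wild type. The difference was 0.48 (standard error 0.27, limma adjusted p = 0.425). It rested on 1 dim probe, at percentile 7.94 of the tested probes, because the other POLE probe was well above background on no array. Without op replicate 1 the difference was 0.13 (adjusted p = 0.602), and with normexp background correction it was 0.21. Without op replicate 2 it was 0.82 with an adjusted p of 0.0449, the one setting among those tried in which any of the 13 genes passed the threshold. The spread then came from wild type alone, 9.73% of all genes passed, and over all the settings the adjusted p of POLE ran from 0.0449 to 0.967.

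**Figure D3:**
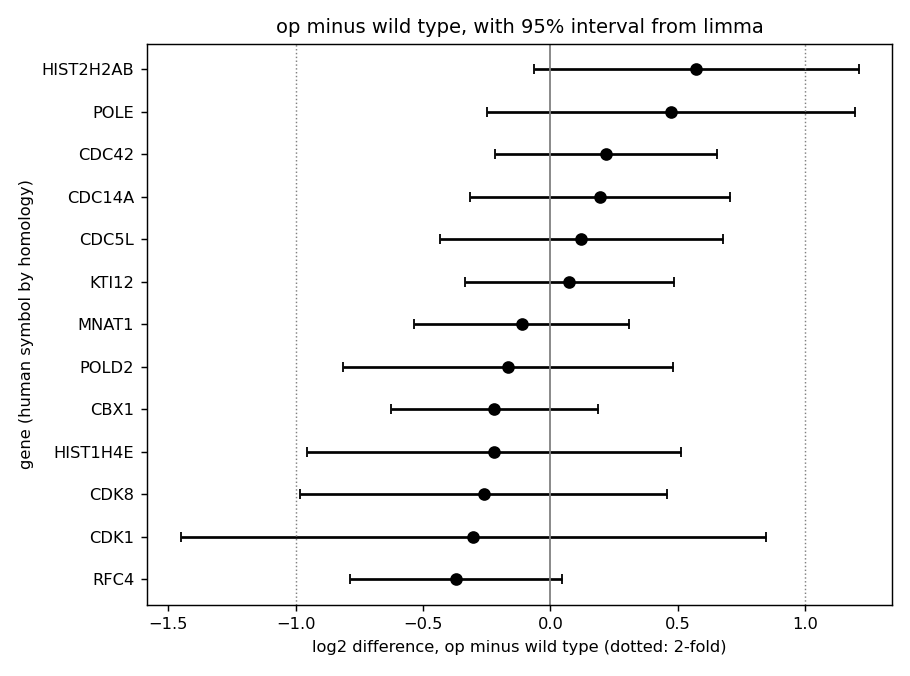
Difference of op minus wild type on the log2 scale (horizontal axis) for each of the 13 genes, ordered by size, with the 95% interval from limma. Every interval includes 0, and 10 of the 13 lie within the dotted lines of a 2-fold change.

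Among the cell cycle kinases, CDK1 drives entry into mitosis and meiosis. It had -2.59 and -1.50 on the op arrays and -1.44 and -2.05 on the wild-type arrays. No other gene of the group had op arrays so far apart, by 1.09 on the log2 scale or 2.13-fold, and only 1 other, HIST2H2AB, had wild-type arrays apart by over 0.40. The genotypes overlapped at a -0.30 log2 difference with a standard error of 0.44 (limma adjusted p = 0.738) and a 95% interval of 0.366 to 1.80 as a ratio. Without op replicate 1 it was 0.24. Both CDK1 probes showed op replicate 1 as the lowest array.

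CDK8, the kinase of the Mediator complex of transcription, had -3.53 and -2.85 on the op arrays and -2.86 and -2.99 on the wild-type arrays. Op replicate 1 was again the low array, and the difference was -0.26 (standard error 0.27, limma adjusted p = 0.644). It was 0.079 without op replicate 1.

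MNAT1, which assembles the kinase that activates other cyclin-dependent kinases, had -0.37 and -0.22 on the op arrays and -0.23 and -0.13 on the wild-type arrays. The arrays of both genotypes lay close together and overlapped at a -0.11 log2 difference with a standard error of 0.16 (limma adjusted p = 0.735) and a 95% interval of 0.690 to 1.24 as a ratio. CDC14A is a phosphatase whose yeast relative acts at the exit from mitosis. It had 0.60 and 0.23 on the op arrays and 0.19 and 0.24 on the wild-type arrays. Op replicate 1 was the high array. CDC14A rested on 1 probe, and the difference was 0.20 (standard error 0.19, limma adjusted p = 0.629). Without op replicate 1 it was 0.0092.

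Besides CDK8, the words of the rule also caught 4 genes whose main known role lies elsewhere. CDC5L, a component of the splicing machinery, had -0.97 and -0.51 on the op arrays and -0.85 and -0.87 on the wild-type arrays. Its op arrays lay on either side of wild type, and the difference was 0.12 (standard error 0.21, limma adjusted p = 0.783). Without op replicate 2 it was -0.11.

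CDC42, a small GTPase of cell polarity and the actin cytoskeleton, had -1.05 and -0.85 on the op arrays and -1.13 and -1.21 on the wild-type arrays. Both op arrays were higher, by 0.22 (standard error 0.17), and this did not pass the test (limma adjusted p = 0.533). KTI12, which in yeast works with the Elongator complex, had -0.20 and -0.11 on the op arrays and -0.28 and -0.18 on the wild-type arrays. The genotypes overlapped, and the 0.074 difference had a standard error of 0.16 (limma adjusted p = 0.823) and was -0.021 after a shift to the array median. CACYBP was found through the word cyclin inside calcyclin, and encodes a calcyclin-binding protein. It was not tested, since its probe was well above background on 1 op array and 1 wild-type array.

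The precision of the 13 differences is set by 2 arrays per genotype. Standard errors ran from 0.15 to 0.44, and adjusted p-values from 0.310 to 0.823. The 95% interval lay between 0.5 and 2 as a ratio for 10 of the 13 genes, the others being HIST2H2AB, POLE and CDK1. It included a doubling in op for HIST2H2AB and POLE, and a fall to less than 0.5 times the wild-type signal for CDK1. Over the whole array the smallest log2 difference that passed the adjusted threshold was 1.71 in size, and all 13 differences were smaller than that.

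The replicates of a genotype differed more in op than in wild type for 10 of the 13 genes, as they did for 72.4% of all genes. For the 13 genes the replicates lay a median of 0.37 apart in op and 0.11 in wild type, on the log2 scale. Over all genes these medians were 0.30 in op and 0.14 in wild type. HIST1H4E and POLE were lower on op replicate 2 by 0.71 and 0.70 on the log2 scale, while CDK1, CDK8 and POLD2 were higher there by 1.09, 0.68 and 0.59. With normexp background correction, op replicate 2 minus op replicate 1 was -0.62 for HIST1H4E and -0.34 for POLE. It was 0.64 for CDK1, 0.21 for CDK8 and 0.47 for POLD2, so the sizes of these gaps depend on the background correction. The op arrays thus did not differ in 1 direction over the group, since 8 genes were lower on op replicate 1 and 5 were higher. The gap of CDK1 was at percentile 94.2 of all genes in op and 94.3 in wild type. RFC4 and KTI12 had op arrays within 0.10 of each other, at percentiles 11.2 and 15.6.

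**Figure D4:**
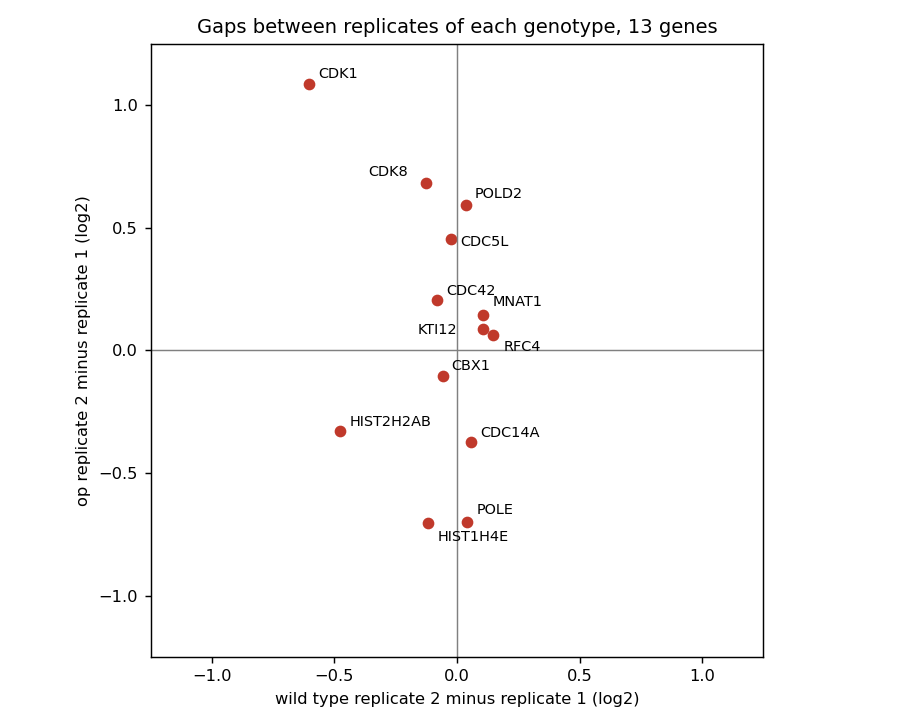
Replicate 2 minus replicate 1 on the log2 scale for each of the 13 genes, in op (vertical axis) and in wild type (horizontal axis), drawn to the same scale. The points spread further along the op axis, from -0.71 for HIST1H4E to 1.09 for CDK1, than along the wild-type axis, from -0.60 for CDK1 to 0.15 for RFC4.

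Other genes of the same processes in the rows used, whose descriptions lack the words of the rule, were set beside these. A list of chromatin modifiers had 19 tested genes, among them histone methyltransferases, deacetylases and subunits of acetyltransferase complexes. In limma 0 of 19 passed the adjusted threshold, and at an unadjusted p under 0.05 6 were lower in op and 0 were higher. Over all genes the unadjusted shares were 7.51% lower and 10.6% higher. The fitted value was lower in op for 14 of the 19, with a median difference of -0.20 beside 0.039 over all genes. Both op arrays lay below both wild-type arrays for 11 of them, against 24% of all genes, and above for 3, against 29.4%. In the lists that follow, both op arrays lay below for 3 of 10 replication and repair genes and 4 of 12 mitosis genes, against the same 24%. They lay above for 1 of 10 and 1 of 12, against 29.4%. The lists were picked with earlier results of these data known, so these counts are no test of a list.

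The modifiers with the smallest p were MBTD1, a reader of methylated histones, and ING3, a subunit of a histone acetyltransferase complex. MBTD1 had -1.13 and -1.19 on the op arrays and -0.32 and -0.33 on the wild-type arrays. All op values were thus below wild type, and the difference was -0.84 (standard error 0.15, limma adjusted p = 0.112). Without op replicate 1 or op replicate 2 the adjusted p was 0.0406 or 0.0461, where 9.2% or 9.73% of all genes passed, and over the settings tried it ran from 0.0406 to 0.690. ING3 had -4.93 and -5.01 on the op arrays and -4.29 and -4.21 on the wild-type arrays, a -0.72 log2 difference with a standard error of 0.15 (limma adjusted p = 0.138). One of its probes was well above background on no op array, so it was tested through wild type, and over the settings the difference of ING3 ran from -0.92 to -0.15. The number of modifiers lower in op was 13 to 16 over the settings, while those lower at an unadjusted p under 0.05 numbered 1 to 8. They were 8 after a shift to the array median, against 11% of all genes, and 2 and 1 without wild type replicate 1 and 2, against 2.39% and 2.26%.

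A list of DNA precursor, replication and repair genes had 10 tested genes, of which 0 passed the adjusted threshold in limma. At an unadjusted p under 0.05, 1 was higher in op and 2 were lower, against 10.6% and 7.51% of all genes. The fitted value was higher in op for 6 of the 10 and lower for 4, and the median difference was 0.028. TREX2, an exonuclease that degrades DNA from its 3' ends, had -0.67 and -0.93 on the op arrays and -0.060 and -0.12 on the wild-type arrays, a -0.71 log2 difference with a standard error of 0.17 (limma adjusted p = 0.163). PIF1, a DNA helicase, had -5.09 and -4.60 on the op arrays and -3.80 and -4.16 on the wild-type arrays, a -0.86 log2 difference with a standard error of 0.25 (limma adjusted p = 0.202). Both genes were below wild type on each op array, but the PIF1 probe was well above background on op replicate 2 alone of the op arrays. It was tested through wild type, where it was higher, and its difference ran from -1.18 to -0.11 over the settings. TREX2 passed without op replicate 1, where 9.2% of all genes did, with an adjusted p of 0.0447 in a range of 0.0447 to 0.787 over the settings.

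A list of mitosis and cell cycle control genes had 12 tested genes, of which 0 passed the adjusted threshold in limma. At an unadjusted p under 0.05 the count was also 0, against 18.1% of all genes. Of the 12 genes, 3 were higher and 9 lower in op as fitted, with a median of -0.089. ANAPC10, a subunit of the anaphase-promoting complex, had 1.09 and 1.30 on the op arrays and 1.55 and 1.59 on the wild-type arrays, a -0.38 log2 difference with a standard error of 0.16 (limma adjusted p = 0.321). AURKC, an Aurora kinase that in mammals acts in meiosis, had -5.08 and -5.01 on the op arrays and -5.31 and -5.59 on the wild-type arrays. It was a dim gene with both op arrays higher, by 0.40 (standard error 0.18, limma adjusted p = 0.321). Over the settings the difference of AURKC ran from 0.11 to 0.54. None of the lists was tested as a whole, and their differences from the 13 genes were not tested.

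**Figure D5:**
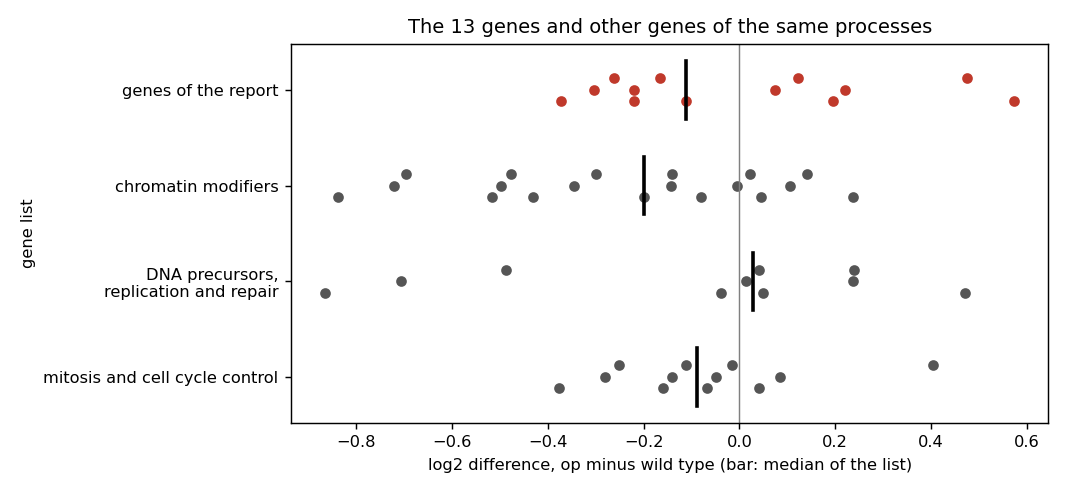
Difference of op minus wild type on the log2 scale (horizontal axis) for the 13 genes, in the top row, and for the lists of 19 chromatin modifiers, 10 DNA precursor, replication and repair genes and 12 mitosis and cell cycle control genes below. Each point is a gene and each bar a list median, at -0.11, -0.20, 0.028 and -0.089 from top to bottom.

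Between 67.8% and 72.3% of probes were well above background on each array, no spot was saturated, and 26 or 27 of the 28 probes of the group were well above background. The genes listed as germ line markers, NANOS3, PIWIL4 and TUBA3D, were well above background on all arrays. Their summed level, on the log2 scale, was 5.90 to 6.17 in op and 6.06 to 6.25 in wild type. At an unadjusted p under 0.05 the count was 0 of 3, against 18.1% of all genes. TUBA3D, an alpha-tubulin symbol that may stand for another gene of its family, made up most of the summed level. PIWIL4 differed by -0.32, with both op arrays below wild type. Of 3 muscle markers 2 were tested, and both were higher in op at an unadjusted p under 0.05, against 10.6% of all genes. TNNT3 differed by 1.78 and TPM2 by 2.25 (limma adjusted p = 0.223 and 0.149). Their sum was 0.87 to 1.31 in op and -1.54 to 0.031 in wild type. The summed fat body markers were at 1.80 to 1.85 in op and 2.11 to 2.18 in wild type over 4 genes. Of these, CIDEC was lower in op at an unadjusted p under 0.05, against 7.51% of all genes. SCD differed by 1.36, with both op arrays above wild type, and FITM2 by over 2 between the replicates of each genotype. The digestive epithelium markers, 5 of 6 tested, summed to -1.21 to -0.58 in op and -0.57 to -0.30 in wild type. At that p 1 was higher and 2 were lower in op, against 10.6% and 7.51% of all genes. The higher one, ANPEP, differed by 1.94 (limma adjusted p = 0.0665) and was well above background on all arrays. The lower ones, CPA4 and CPB1, were well above background on 0 and 1 op arrays and were tested through wild type, where they were higher. The part of such tissues in the differences above was not tested.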

How the data were processed

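The authors labelled testis RNA with the Agilent Quick Amp kit and read the slide with Feature Extraction 9.5. The deposited files give an intensity per spot, from which background had been subtracted, and other columns flag spots that were saturated, outliers or well above background. In addition, the authors deposited normalized log2 values, which equalled the shift used here plus a centre per probe within 3.55e-04, and which served as an alternative. Their column medians were 0.055 and 0.015 for the op arrays, against -0.048 and 0.020 for the wild-type arrays.

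Here each processed signal was taken as log2, less the 75th percentile found on that array, without the 1417 control spots and the 2 to 4 outlier spots of each array. Probes entered the test if both arrays of 1 genotype or the other were well above background. Probes with a symbol were averaged per symbol and all others per EST. The genotypes were compared in R 4.3.3 with limma 3.58.1 (lmFit, eBayes). Tests were two-sided, and p-values were adjusted by Benjamini-Hochberg over all genes, probes or ESTs, at a threshold of 0.05. The model was run on simulated data drawn with its own fitted spread, equal in both genotypes. That run cannot show how it handles a spread that differs between genotypes. Precision is limited by the number of arrays.

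The genes and lists were chosen with earlier results of these data known. Every gene that the rule found in the rows used is named, and of each other list those past the threshold or otherwise the 2 with the smallest p. Gene names came from part of the re-annotation table, whose columns of expression values and ratios were not used. The op arrays were in positions 1 and 3 and the wild-type arrays in positions 2 and 4 of the slide, in 1 scan. The alternatives were other background corrections (normexp on median spot signals with an offset of 50), scalings, filters, fits, a replicate block, the methods' t-test and leaving out each array. The counts over the 3 other lists under these settings were added after seeing the data.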

Additional observations from a re-analysis of the deposited data

How the results depend on the processing

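No gene of the group passed the adjusted threshold under any setting but 1, and none of the 26 probes passed under any (0 in each). The exception was POLE without op replicate 2, so leaving out each array in turn gave 0 to 1 of the 13 genes, where 9.73% of all genes passed without that array. The median difference of the 13 genes was -0.11 and ran from -0.11 to 0.12 when each array was left out, with 0.12 without op replicate 1, where 9 of the genes were higher in op. It was -0.21 both with a shift to the array median and with no scaling, where 8 of the genes were lower. The chromatin modifiers and the DNA precursor, replication and repair list had 0 to 1 genes called without each array in turn, MBTD1 without either op array, TREX2 without op replicate 1 and PIF1, dim in op, without op replicate 2 (9.2% and 9.73% of all genes passed without op replicate 1 and 2), and 0 in the other settings, while the mitosis and cell cycle control list had 0 throughout.

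The count of genes called over the whole array, 81, was 338 with normexp, 19 with quantile normalization, 34 with no scaling between arrays, 44 with probes above background on all arrays, 356 with the trend and robust fit, 0 with no filter on dim probes (3973 at an unadjusted p under 0.05) and 0 with the methods' t-test after adjustment (3248 before). Without each array in turn it was 63 to 2317, with 2190 and 2317 without op replicate 1 and 2, where the spread came from wild type alone. Of the calls 45.7% were higher in op, and this share became 74.6% under normexp, 26.3% under quantile normalization and 26.5% without scaling. The replicate block raised the count to 525, and 0 of the 13 genes passed. The numbers mark no shared animal, and same-numbered arrays did not deviate together (correlation -0.034 across genes). The cause of these shifts was not tested.

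KTI12 turned to -0.021 with a shift to the array median and -0.022 with no scaling, and its probe Ka00653_617 to -0.056 and -0.058. These settings move the median of all genes to -0.055 and -0.057. Without each array in turn, differences ran from -0.57 to 0.13 for HIST1H4E, -0.46 to 0.13 for POLD2, -0.85 to 0.24 for CDK1, -0.60 to 0.079 for CDK8, 0.0092 to 0.38 for CDC14A, 0.13 to 0.82 for POLE, 0.34 to 0.81 for HIST2H2AB and -0.11 to 0.35 for CDC5L. Single probes ran from -0.021 to 0.27 for Ka00066_590, -0.19 to 0.42 for Ka00066_650, -0.0050 to 0.081 for Ka00653_617, -0.87 to 0.20 for Ka01653_657, -0.82 to 0.28 for Ka01653_727, -0.0053 to 0.38 for Ka01731_734, -0.57 to 0.12 for Ka02029_413, -0.63 to 0.041 for Ka02029_453, -0.47 to 0.17 for Ka02035_384, -0.45 to 0.096 for Ka02035_424, -0.48 to 0.16 for Ka02208_13 and -0.67 to 0.10 for Ka02208_37. Low signal over background limits what POLE, CACYBP, ING3 and PIF1 can show.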
